A study of Oryctolagus cuniculus with 16 samples.

Results

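The comparison described here set the media of the basilar terminus (BT) against the media of the straight basilar artery (BA) in rabbits whose common carotid arteries had been ligated on both sides 24 h earlier. Its members were chosen by their labels and not by any measured value: they are 4 of the 16 RNA-seq libraries of the series, 2 from the BT and 2 from the BA, and each of rabbits 5 and 6 gave 1 library of either location. The animals were female New Zealand white rabbits, and ligation raises the flow that the basilar artery has to carry. A library combined laser-cut pieces from several sections, taken near the bifurcation apex for the BT and along the straight vessel for the BA. Of the other 12 libraries, 4 from the media of the BT and BA of rabbits 3 and 4, which had sham surgery and normal flow, and 4 from the intima of the BT and BA of rabbits 5 and 6 were used for comparison. Every animal was operated on, and a group of 2 rabbits, each amplified once, is the limit of every statement on location.

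The media is the muscular layer of an artery. Its vascular smooth muscle cells (VSMCs) carry a contractile apparatus of smooth muscle actin and myosin, heat shock proteins that keep these filaments folded, and a matrix of collagen, elastin and proteoglycans that they make and degrade. The apex of a bifurcation takes the impact of the incoming stream, and under a raised flow it is known to lose internal elastic lamina and medial cells, whereas a straight segment under the same flow mostly enlarges.

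Named genes took 3350190 counts in the BT and 2154863 in the BA of rabbit 5, and 8504341 and 4277023 in those of rabbit 6, so that the BT library was the deeper in both animals. The tissue label was borne out by the markers of VSMCs. ACTA2, the smooth muscle actin, stood at 65986 and 58687 CPM, counts scaled to a common library size, in the BT of rabbits 5 and 6 and at 92176 and 106491 in the BA, DES at 1075 to 3109 CPM and MYH11 at 413 to 856 CPM over the 4 libraries. TAGLN was not analysed here. Markers of neurons and glia were near 0: 11 of the 24 brain parenchymal markers with an entry had no count in any of the 4 libraries, among them AQP4, SLC1A3, MOG and GAD1, and the list summed to 16.8 to 36.2 CPM.

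Of 8545 genes tested, 178 (2.08%) passed a q-value of 0.05 in edgeR's quasi-likelihood test with rabbit as a block, 78 (0.913%) higher and 100 (1.17%) lower in the BT than in the BA. The median fold was 3.77 among the genes that rose and 2.33 among those that fell. Of the 178, 168 differed the same way in both rabbits. Of all genes tested 29.7% were higher and 26.1% lower in both rabbits. In 60 of the 78 both BT libraries lay above both BA libraries, against 21.0% of all genes tested, and in 98 of the 100 both lay below, against 18.3% of all genes tested. The test had a single residual degree of freedom, and edgeR estimated a prior of infinite weight, so that all genes shared 1 trended spread and a gene's own scatter between rabbits did not enter its error. Without the block 1 gene passed, with the newer form of the same test 0 passed (1034 at an unadjusted p below 0.05, smallest q = 0.403), and DESeq2 with the block called 83. In a fit that took its spread from all 8 medial libraries 37 genes passed, 35 of them among the 178, 11 higher and 24 lower. The count was 76 without rabbit 5 and 19 without rabbit 6, in fits that kept the 2 sham rabbits and took their spread from them, so that the lone ligated pair was assumed to vary like the sham pairs. The median log2 difference of all genes tested was 0.06, or 0.23 without composition scaling, under which 12 of 18 calls were higher in the BT against 78 of 178 with it. Of the gene lists described below with a call under TMM scaling, those of heat shock, hyaluronan matrix, positional transcription factor, protease, vasoactive and fibroblast genes had at least 1 without composition scaling, and the others had 0. Log2 differences below are on the TMM scale, and SE is the standard error of the log2 difference.

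**Figure D1:**
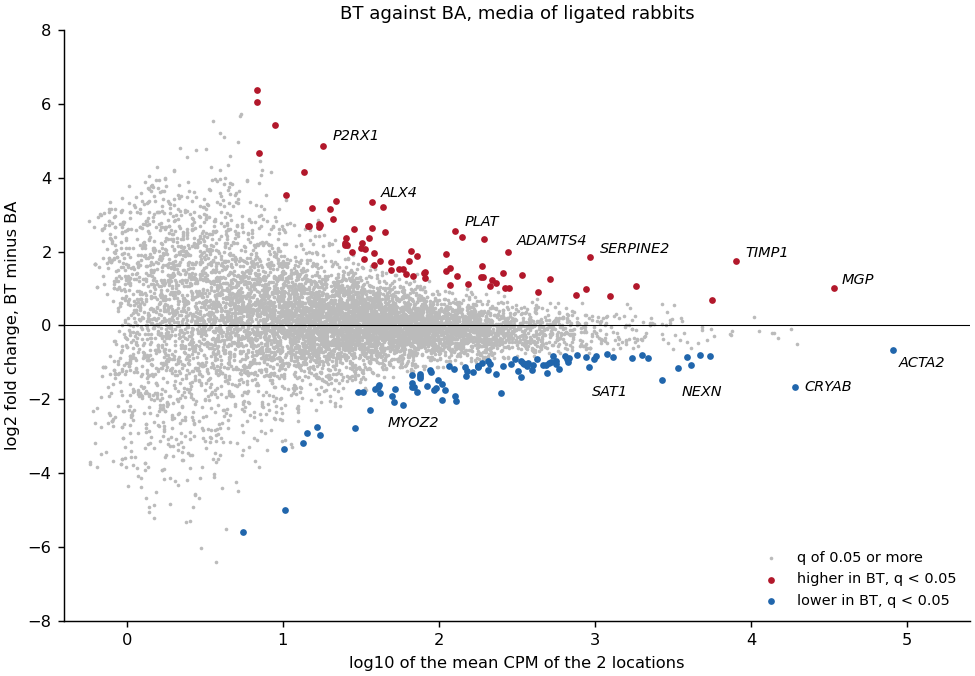
Log2 fold change of the BT over the BA against the log10 of the mean CPM for the genes tested, with 336 genes that had no count in a location left out. Red points are genes higher and blue points genes lower in the BT at q below 0.05; the genes lower in the BT include the abundant ACTA2 and CRYAB, and TIMP1 and MGP are the most abundant of the labelled genes higher in the BT.

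Extracellular proteases and their inhibitors were the list with the most genes higher in the BT. Of its 26 members tested, 7 rose and 0 fell, against 0.913% and 1.17% of all genes, and the median log2 difference of the list was 1.02, or 0.49 with 3 calls without rabbit 6. TIMP1, a secreted inhibitor of matrix metalloproteinases, read 13599.8 and 10787 CPM in the BT of rabbits 5 and 6 and 5462 and 2388 CPM in the BA. The locations did not overlap, and in either rabbit the BT was higher. The difference was 3.35-fold (log2 1.75, SE 0.18, q = 6.54e-18). SERPINE2, an inhibitor of thrombin and of plasminogen activators, read 1228 and 1687 CPM in the BT and 476 and 332 CPM in the BA, which was 3.63-fold (log2 1.86, SE 0.24, q = 1.03e-11). PLAT, the tissue plasminogen activator itself, read 216 and 204 CPM in the BT against 69.8 and 18.0 in the BA (5.85-fold, q = 7.82e-10). A protease of the plasmin system and an inhibitor of it were thus both higher at the BT, again without overlap of the libraries. PLAUR, the urokinase receptor, read 48.3 and 98.1 CPM against 30.0 and 3.95 (5.81-fold, q = 0.000513). In TIMP1, SERPINE2, PLAT and PLAUR the BA of rabbit 6 was the lowest library, as it was for the summed endothelial markers given below. The part of endothelial RNA in these calls was not tested.

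The 3 secreted ADAMTS proteases, which cleave versican and related proteoglycans and belonged to the same 7, were alike in pattern. ADAMTS4 read 559 and 326 CPM in the BT and 135 and 86.3 CPM in the BA (3.95-fold, log2 1.98, SE 0.28, q = 2.25e-09). ADAMTS1 read 947 and 504 CPM against 426 and 194 (2.40-fold, q = 0.000115), and ADAMTS9 54.4 and 48.7 CPM against 16.7 and 13.1 (3.48-fold, q = 0.0371). For each of them both BT libraries exceeded both BA libraries. The gelatinase MMP2 read 58.7 and 82.9 CPM against 74.8 and 48.3, so its locations overlapped (q = 0.939), and MMP9, MMP12 and MMP13 had no count in any of the 4 libraries. TIMP1, SERPINE2, PLAT, ADAMTS4 and ADAMTS1 were also called in the fit over 8 medial libraries, whereas PLAUR (q = 0.577) and ADAMTS9 (q = 0.389) were not.

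Among the genes of the hyaluronan matrix, 2 of 7 tested rose and 0 fell, against 0.913% and 1.17% of all genes tested. The list median was 0.14, but −0.71 with 1 call without rabbit 5, 0.90 with 0 calls without rabbit 6, and 0.30 with 1 call without composition scaling. TNFAIP6 transfers protein chains onto hyaluronan and read 216 and 443 CPM in the BT and 59.5 and 64.4 CPM in the BA (5.03-fold, log2 2.33, SE 0.31, q = 1.61e-10). HAS2, a hyaluronan synthase, read 17.7 and 33.0 CPM against 4.43 and 0 (q = 0.00281), with 9 and 0 counts behind the BA values. Of 15 matricellular genes, 1 rose and 2 fell, against 0.913% and 1.17% of all genes tested (0 and 0 without composition scaling), and the second that fell, CTGF, is given below with the YAP targets. THBS2 rose (96.1 and 96.6 CPM against 45.2 and 18.0, q = 0.00268) while its relative THBS1 fell (2188 and 3129.6 CPM against 6747 and 4484, log2 −1.07, SE 0.19, q = 1.81e-05). The 2 thrombospondins thus differed in opposite directions, each without overlap of the locations. MGP, an inhibitor of calcification, read 39879 and 50130.5 CPM in the BT and 28046 and 17325 CPM in the BA, a difference of 2.03-fold (q = 3.45e-08).

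Of the structural matrix genes, collagens and collagen-modifying enzymes had 1 call each, beside 2.08% of all genes tested. Of 15 collagens 0 rose and COL11A1 fell (38.8 and 66.3 CPM against 115 and 174, q = 0.00302), and the fibrillar COL1A2 and COL3A1 read 2048 and 1789 against 1110.1 and 1471 CPM (q = 0.161) and 3179.5 and 3244 against 1770.1 and 2552 CPM (q = 0.0986). All 8 basement membrane genes tested had a log2 difference above 0 and 4 had both BT libraries above both BA libraries (21.0% of all genes tested did), with a median of 1.12 beside 0.06 for all genes tested, but 0 of the 8 passed. Their nearest was HSPG2, perlecan, at 63.4 and 80.6 CPM in the BT against 34.4 and 28.4 CPM in the BA (q = 0.138). Of the collagen-modifying enzymes 1 of 13 rose, BMP1, which trims procollagen (77.6 and 53.2 CPM against 19.2 and 18.7, q = 0.0149). Neither the 12 elastic fibre genes nor the 9 small leucine-rich proteoglycans had a member past the threshold.

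**Figure D2:**
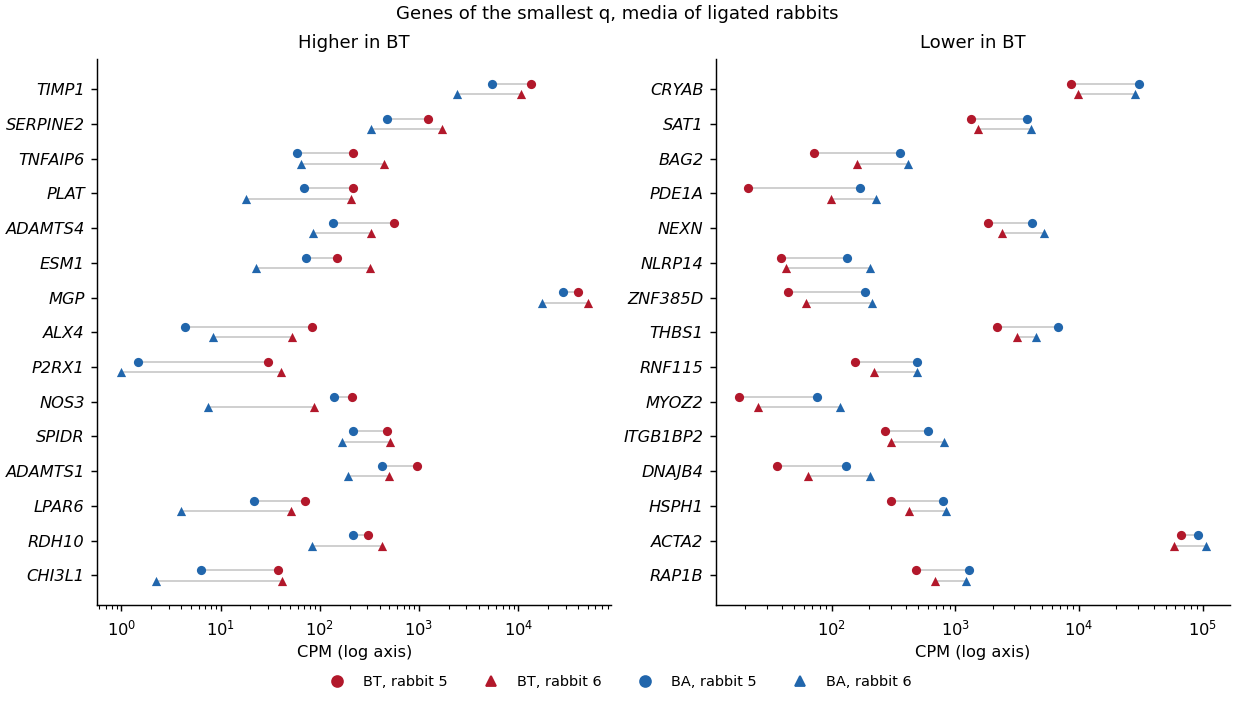
CPM on a log axis of the 15 genes with the smallest q in either direction among those that differed the same way in both rabbits. Circles are rabbit 5 and triangles rabbit 6, red the BT and blue the BA, and a grey line joins the 2 locations of a rabbit; the locations overlap for NOS3 only.

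The heat shock genes that passed the test were all lower in the BT. Of 19 tested 0 rose and 4 fell (CRYAB, DNAJB4, HSPH1 and DNAJA4), against 0.913% and 1.17% of all genes tested, and the list median was −0.54. Without composition scaling 1 of the 19 passed and the median was −0.38, and 2 passed without rabbit 5 and 1 without rabbit 6. Of the 19, 13 were lower in both rabbits, against 26.1% of all genes tested. CRYAB, the small heat shock protein alpha-B crystallin that binds desmin and actin filaments, read 8562 and 9731 CPM in the BT and 30212 and 28179.5 CPM in the BA. The 2 BA libraries lay close to each other and far above both BT libraries. The level fell by 1.68 on the log2 scale (3.20-fold, SE 0.16, q = 2.48e-20), the smallest q-value of the comparison. HSPH1, a large HSP70-type chaperone, read 302 and 421 CPM against 789.9 and 840 (q = 0.000293). DNAJB4 and DNAJA4, partners of HSP70, read 36.2 and 64.6 CPM against 131 and 204 (q = 0.000105) and 31.3 and 37.1 CPM against 89.5 and 112 (q = 0.00644). BAG2, a co-chaperone outside the list, followed the same pattern at 71.5 and 161 CPM in the BT and 356 and 414 CPM in the BA (log2 −1.83, SE 0.29, q = 1.42e-07). CRYAB, HSPH1, DNAJB4 and BAG2 were called in the fit over 8 medial libraries as well, and DNAJA4 was not (q = 0.168). HSPA8, the constitutive HSP70, read 285 and 496 CPM in the BT and 598 and 665 CPM in the BA without passing (q = 0.0924).

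The chaperonin TRiC, which folds actin and tubulin, had 1 of its 9 subunit genes past the threshold, beside 2.08% of all genes tested: CCT4 read 427 and 527 CPM in the BT and 741 and 1018 CPM in the BA (q = 0.0170). The other subunits did not pass, yet both BT libraries lay below both BA libraries for 8 of the 9, against 18.3% of all genes tested, the exception being the scarce CCT6B. The list median was −0.58, and −0.42 without composition scaling. Of 40 proteasome genes only PSMD12 fell (376 and 399 CPM against 687 and 686, q = 0.0382), beside 1.17% of all genes tested, with a list median of −0.23 (−0.07 and 0 calls without composition scaling). Among 18 genes of the unfolded protein response 0 rose and 2 fell (0 without composition scaling), against 0.913% and 1.17% of all genes tested, namely the transcription factor DDIT3 (353 and 335 CPM against 525 and 872, q = 0.00758) and the asparagine synthetase ASNS (8.97 and 13.02 CPM against 27.5 and 94.2, q = 0.00271), while the list median was 0.03. Outside the list and named after their values were seen, genes that fell included the tRNA synthetases TARS (314 and 409 CPM against 566 and 966, q = 0.00277) and MARS (q = 0.0382). Others were the serine-making enzyme PHGDH (q = 0.0362) and the initiation factors EIF4E (q = 0.00271) and EIF2S1 (q = 0.00117). These genes were picked from the calls, no list of them was set in advance, and they were not tested as a group.

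Of the contractile genes, ACTA2 and SYNPO2 were lower at the BT. Of the 20 tested 0 rose and 2 fell, against 0.913% and 1.17% of all genes tested, the list median was −0.31 (−0.15 without composition scaling and −0.04 without rabbit 6, with 0 calls in either), and the summed level of the list was 0.83 and 0.63 times that of the BA in rabbits 5 and 6. ACTA2, whose values are given above, fell by 0.67 on the log2 scale (1.59-fold, SE 0.14, q = 0.000293), and neither location overlapped the other. ACTA2 took the most counts of the 20 genes, and with DESeq2 it fell short of the threshold (q = 0.0639). SYNPO2, an actin-binding protein of the dense bodies, read 19.4 and 75.8 CPM in the BT and 78.7 and 130.2 CPM in the BA (q = 0.0220). ACTG2, the enteric smooth muscle actin, read 16827 and 15995 CPM against 23869 and 22241 (q = 0.0798). MYH11, the smooth muscle myosin heavy chain, read 413 and 595 CPM against 423 and 856, with overlap of the locations (q = 0.805), and MYLK, which phosphorylates the myosin light chain, read 3430.1 and 3146 CPM against 2445 and 2634 (q = 0.512). In bulk tissue, fewer cells of a type and less RNA per cell cannot be told apart.

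NEXN, MYOZ2 and ITGB1BP2 were among the 15 genes of the smallest q-values that fell. NEXN, nexilin, an actin-binding protein of Z-discs, read 1839.6 and 2395 CPM in the BT and 4165 and 5243 CPM in the BA (2.23-fold, log2 −1.15, SE 0.20, q = 2.57e-06). MYOZ2, which tethers calcineurin to the Z-disc, read 17.9 and 25.3 CPM against 76.2 and 116 (q = 8.91e-05), and ITGB1BP2, melusin, a binding partner of beta1 integrin, 270.0 and 299.6 CPM against 596 and 816 (q = 8.91e-05). All 3 had both BT libraries below both BA libraries, and NEXN was also called over 8 medial libraries. Named after their values were seen, PDLIM5 (2549 and 3009.7 CPM against 4832 and 5150.3, q = 0.00177), FERMT2, the integrin activator kindlin-2 (1450.4 and 1612 CPM against 2548 and 3137, q = 0.00268), SLMAP (q = 0.00177), MYOM1, a myosin cross-linker (q = 0.00855), the actin assembly factor FHOD3 (q = 0.000685), and CFL2, the muscle cofilin (q = 0.00782), fell too. They were picked from the calls, and genes of this kind were not tested as a list. FLNC, filamin C, passed (q = 0.0458) although its libraries overlapped at 86.5 and 199 CPM in the BT and 191 and 345 CPM in the BA. Among 17 integrin and adhesion genes 0 fell and ITGA10 rose, with 16 and 118 counts in the BT and no count in either BA library, at least 7.87-fold against 3 counts per library. That 1 call stood beside 0.913% of all genes tested that rose, and the list had 0 higher without composition scaling, with filterByExpr, edgeR's own filter on low counts, and with DESeq2.

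Targets of YAP and TEAD, transcriptional regulators that respond to cell tension, had 0 of 16 tested higher and 3 lower, against 0.913% and 1.17% of all genes tested. CTGF, a matricellular growth modulator, read 3499.6 and 3303 CPM in the BT and 6555 and 5367 CPM in the BA (log2 −0.80, SE 0.19, q = 0.00277). ANKRD1, a sarcomeric ankyrin repeat protein, read 1586 and 922 CPM against 2472 and 1977 (q = 0.00458), and NT5E, which makes adenosine, 5.21 and 0.98 CPM against 12.3 and 35.3 (q = 0.0381). In each of the 3 the locations did not overlap. The list median was −0.17, and without composition scaling it was −0.0075 with 0 calls. It was −0.31 with 1 call without rabbit 5 and −0.34 with 0 calls without rabbit 6. The summed list was 0.62 times as high in the BT as in the BA in rabbit 5 and 0.61 times in rabbit 6.

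Of the 15 genes with the smallest q-values in either direction, the remaining ones that fell had other roles. SAT1, the rate-limiting enzyme of polyamine breakdown, read 1334 and 1527 CPM in the BT and 3798 and 4114 CPM in the BA (2.77-fold, log2 −1.47, SE 0.20, q = 7.82e-10). PDE1A, a calmodulin-dependent phosphodiesterase of cyclic nucleotides, read 21.1 and 99.5 CPM against 169 and 228 (q = 1.78e-06). The BA libraries were alike for both genes, whereas the BT of rabbit 5 held the lowest PDE1A level by far. RAP1B, a small GTPase of adhesion signalling, read 476 and 689.7 CPM against 1291 and 1215 (q = 0.000293), RNF115, a ubiquitin ligase, 155 and 218 CPM against 486 and 485 (q = 7.47e-05), ZNF385D, a zinc finger protein, 44.3 and 62.4 CPM against 185 and 212 (q = 4.75e-06), and NLRP14, of the NLR family, 38.8 and 42.9 CPM against 133 and 205 (q = 4.49e-06). These 6 genes were called in the fit over 8 medial libraries, among 13 of the 15 that fell and 11 of the 15 that rose.

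Position along an artery is marked by transcription factors that cells keep from development, and 2 of 25 such factors tested rose while 0 fell, against 0.913% and 1.17% of all genes tested. ALX4, a homeobox factor, read 83.6 and 52.0 CPM in the BT and 4.43 and 8.38 CPM in the BA, with 9 and 34 counts behind the BA values. Every BT library was several times above every BA library, and the difference was 10.1-fold (log2 3.34, SE 0.55, q = 1.02e-06). TCF21, a factor of the pericardial and adventitial lineages, read 11.9 and 26.7 CPM against 1.97 and 1.23, with 4 and 5 counts in the BA (q = 0.0306, and 0.577 over 8 medial libraries). The list median was 0.11, and it was −0.15 with 1 call without rabbit 6, 0.25 with 0 calls without rabbit 5 and 0.27 with 1 call without composition scaling. In all, 21 of the 54 factors in the table, several HOX genes among them, had no count in any of the 4 libraries.

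Among 36 vasoactive receptors and ligands 3 rose and 0 fell, against 0.913% and 1.17% of all genes tested. The list median was 0.78, which was 0.18 with 0 calls without rabbit 6, and 1 gene passed without composition scaling. P2RX1, the ATP-gated channel through which sympathetic ATP contracts VSMCs, read 29.8 and 40.6 CPM in the BT and 1.48 and 0.99 CPM in the BA, where 3 and 4 counts stood behind the values. The difference was 29.1-fold (log2 4.86, SE 0.85, q = 4.78e-06), and P2RX1 was called over 8 medial libraries too. NOS3, the endothelial nitric oxide synthase, and CALCRL, the receptor core for adrenomedullin and CGRP, are given below with the endothelial markers. Calcium handling and ion channel genes had 0 of 18 higher and 1 lower, ABCC9, the sulphonylurea receptor of vascular KATP channels (183 and 278 CPM against 496 and 394, q = 0.0202), against 0.913% and 1.17% of all genes tested. The list had no call without composition scaling, with filterByExpr or with DESeq2. PDGFRB, the PDGF receptor of mural cells, rose from 134 and 139 CPM in the BA to 299.5 and 272 CPM in the BT (2.09-fold, q = 0.0172), and EPHA3 fell (q = 0.00882). These were the 2 calls among 33 growth factors and receptors, and PDGFRB was also the single call of 12 Notch genes, beside 2.08% of all genes tested. Pericyte markers had PDGFRB higher and ABCC9 lower among 9 tested, against 0.913% and 1.17% of all genes tested. With DESeq2, as without composition scaling, these 3 lists had no call.

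In the retinoid pathway RDH10, which makes retinal from retinol, rose (305 and 423 CPM against 217 and 83.3, q = 0.000321), and ALDH1A2, which makes retinoic acid from retinal, fell (150.2 and 234 CPM against 521 and 382, q = 0.000956). Neighbouring steps of the same synthesis thus differed in opposite directions. The third call of the 14 genes, TTR, rested on 80 counts in the BA of rabbit 5 alone, with no count in the other 3 libraries. The list thus had 1 higher and 2 lower, against 0.913% and 1.17% of all genes tested, and 0 without composition scaling. LPAR6, a receptor for lysophosphatidic acid (71.8 and 50.8 CPM against 21.6 and 3.95, q = 0.000272), SPIDR, a scaffold of DNA repair (476 and 512 CPM against 218 and 166, q = 9.33e-05), and CHI3L1, a secreted chitinase-like protein (37.6 and 42.0 CPM against 6.39 and 2.22, q = 0.000458), completed the genes of the smallest q-values that rose, with both BT libraries above both BA libraries. Of 20 cell cycle genes only MCM6, a replication helicase subunit, rose (64.8 and 38.1 CPM against 15.3 and 8.63, q = 0.0102), beside 0.913% of all genes tested, and 0 passed with DESeq2. The 22 glycolysis and hypoxia, 16 redox, 30 TGF-beta and BMP, 20 Wnt, 15 apoptosis, 4 histone, 13 mitochondrial-encoded, 40 oxidative phosphorylation and 31 ribosomal protein genes tested had no call.

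**Figure D3:**
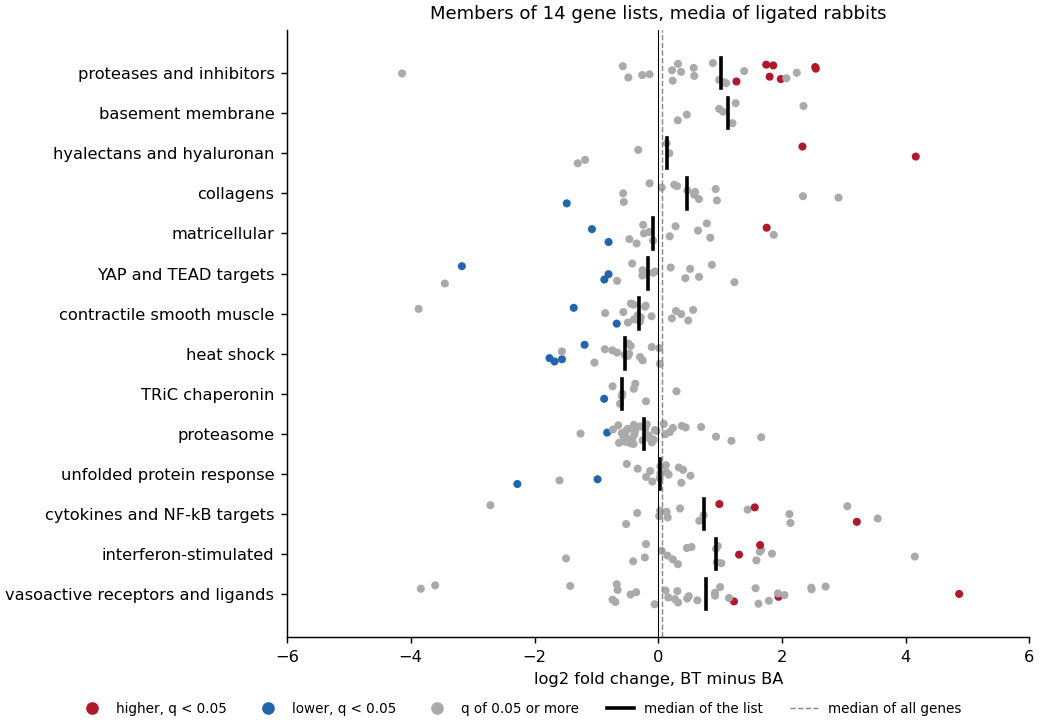
Log2 difference between the BT and the BA of each tested member of 14 gene lists, with 7 members left out that had no count in a location or lay beyond the axis. Red and blue points passed q below 0.05, black bars are the medians of the lists and the dashed line that of all genes; 7 proteases and inhibitors lie to the right and 4 heat shock genes to the left of it among the coloured points.

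The inflammatory and interferon genes that were called had their larger differences in rabbit 6. Of 19 cytokines and NF-kB targets 3 rose (0.913% of all genes tested did), but the libraries of all 3 overlapped. CXCL10, a T cell chemokine, read 9.84 and 150.3 CPM in the BT and 14.8 and 0 CPM in the BA (q = 0.00177). VCAM1, an adhesion molecule for leukocytes, read 1147 and 725 CPM against 1499.6 and 139 (q = 0.00931), and PTGS2, the inducible cyclooxygenase, 174 and 122 CPM against 159 and 14.1 (q = 0.00326). In rabbit 5 the locations were thus alike or reversed, and in rabbit 6 the BT was far above the BA. The summed list was 0.87 times the BA level in rabbit 5 and 2.25 times in rabbit 6, and its median of 0.73 was 0.01 with 0 calls without rabbit 6. Outside the list and named after its values were seen, the neutrophil chemokine CXCL5 had 467 counts in the BT of rabbit 6 and no count in the other 3 libraries. Interferon-stimulated genes had 2 of 22 higher, beside 0.913% of all genes tested, among them ISG15 (163 and 394 CPM against 128 and 82.9, q = 0.00356), and a median of 0.94 that was −0.37 without rabbit 6. FOS was the single call of 17 immediate early genes (162 and 140.2 CPM against 117 and 24.9, q = 0.00455), beside the same 0.913%. The cytokine, interferon-stimulated and immediate early lists each had 0 calls without composition scaling, with filterByExpr and with DESeq2. None of these 5 listed genes named here passed over 8 medial libraries, where the smallest of their q-values was 0.0908.

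Markers of the endothelium differed between the BA libraries. The list of 15 tested genes summed to 1282 and 990.4 CPM in the BT of rabbits 5 and 6 and to 1221 and 561 CPM in the BA, so that the BT was 1.05 times the BA in rabbit 5 and 1.76 times in rabbit 6. PECAM1, an adhesion molecule that defines endothelium, was the single call (q = 0.0391; 0 calls with DESeq2), beside 2.08% of all genes tested, and read 124 and 54.6 CPM in the BT and 138 and 5.42 CPM in the BA. VWF read 309 and 98.4 CPM against 279 and 42.7 (q = 0.362), and CDH5 14.8 and 5.64 CPM against 7.87 and 0 (q = 0.473). The BA library of rabbit 6 was thus the lowest in all 3, and those of rabbit 5 were alike for PECAM1 and VWF. NOS3 read 210.4 and 86.7 CPM against 139 and 7.40 (q = 8.91e-05), CALCRL 286 and 184 CPM against 388 and 22.7 (q = 0.0170), and ESM1, a proteoglycan of activated endothelium, 149.6 and 319.5 CPM against 72.8 and 22.9 (q = 1.78e-08). Named after their values were seen, CD93, ADGRL4, MYCT1 and SLCO2A1, all known from endothelium, read 0.74, 1.48, 1.23 and 5.67 CPM in the BA of rabbit 6 and 16.2, 107, 59.0 and 69.8 CPM in that of rabbit 5, and were called higher in the BT (q = 0.0052 to 0.0479). They were picked from the calls and not tested as a list. In the endothelial list 11 genes had a log2 difference above 0 and 4 below, with a median of 0.49 (0.06 for all genes tested), or −0.21 without rabbit 6. Without rabbit 6 the log2 difference of PECAM1 was −0.16 and that of CALCRL −0.44. The part of endothelial RNA in these calls was not tested.

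Markers of other cell types stood at different levels. Macrophage markers summed to 129 and 243 CPM in the BT and 191 and 93.5 CPM in the BA, with CD74 the most counted and CD14 at 17.9 and 8.57 against 10.8 and 2.22 CPM, and 0 of 13 passed. Of 13 neutrophil and lymphocyte markers with an entry, 2 were tested and 8 had no count in the 4 libraries, CD3E, MS4A1 and MPO among them. Their sum, mostly S100A9, was 381 and 103 CPM in the BT and 682 and 37.0 CPM in the BA. Erythrocyte genes summed to 3317 and 1567 CPM against 626 and 2063, and HBB2, a beta globin, was called (q = 0.00133) although it was higher in the BT of rabbit 5 (3278 against 557 CPM) and lower in that of rabbit 6 (1505 against 2001 CPM). In the fibroblast and leptomeningeal list MGP rose, ALDH1A2 fell (0.913% and 1.17% of all genes tested did) and the median of 14 genes was −0.65 (0.08 without rabbit 5), whereas its sum, mostly MGP, was 1.33 and 2.68 times the BA level. Of 8 Schwann and nerve markers only NCAM1 rose (30.1 and 20.1 CPM against 4.43 and 3.21, q = 0.0382, and 0 passed with DESeq2), beside 0.913% of all genes tested, and NPY and VIP had no count. Of the 7 brain parenchymal markers tested 0 passed. The part of these cells in the calls was not tested.

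**Figure D4:**
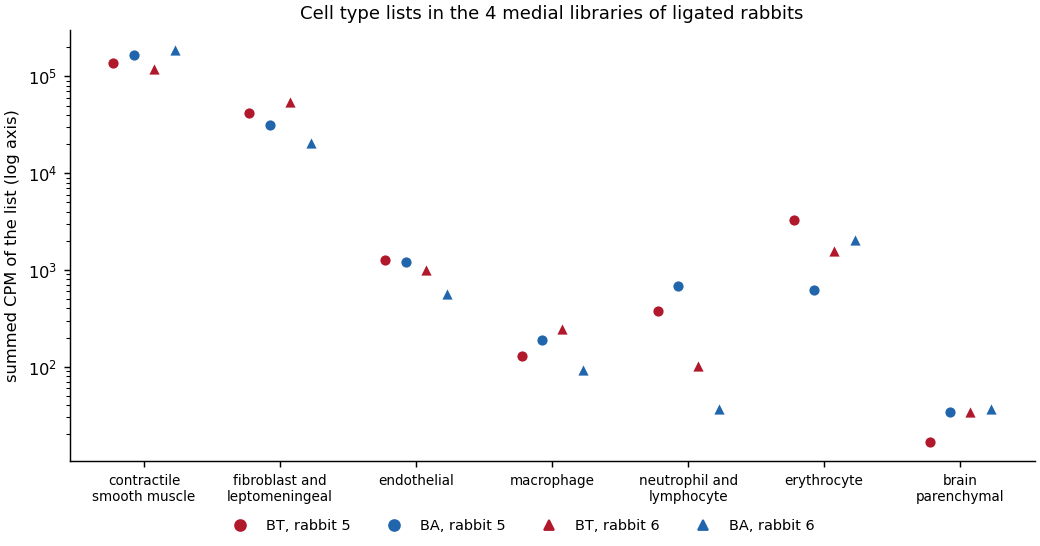
Summed CPM, on a log axis, of 7 lists of cell type genes in each of the 4 libraries. Circles are rabbit 5 and triangles rabbit 6, red the BT and blue the BA; contractile genes are the highest of the 7 lists in every library, and endothelial and leukocyte lists are lowest in the BA of rabbit 6.

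To ask whether the difference between the locations was there without ligation, the same contrast was taken in the media of the 2 sham rabbits and the difference of the differences was tested over 8 medial libraries with rabbit as a block. Of 9368 genes tested in that fit, 53 passed for location in sham media and 37 in ligated media. Of the 178 genes called above, 7 passed in sham media. For the difference of the differences 47 genes (0.502%) passed, 20 with a higher and 27 with a lower difference in ligated than in sham animals. Without composition scaling 32 of 45 calls were higher, so the balance of directions depended on the scaling. The count was 1 with the newer form of the test, 2 without the block, 123 with DESeq2, and 178, 189, 109 and 31 without rabbits 3, 4, 5 and 6 in turn. Sham and ligated animals were different rabbits, and these tests share the ligated libraries with the comparison above. TIMP1 read 923 and 862 CPM in the BT of sham rabbits 3 and 4 and 969 and 845 CPM in their BA. Sham libraries of both locations were thus alike and below every ligated one, and the difference of the differences was 1.77 on the log2 scale (SE 0.27, q = 0.000953). CRYAB read 4582 and 2432 CPM in the sham BT and 3152 and 2076 CPM in the sham BA, with the BT the higher in both rabbits, and its location difference was lower in ligated animals by 2.06 (difference −2.06, SE 0.22, q = 4.35e-06). HSPH1 and DNAJB4 were likewise higher in the BT than in the BA of both sham rabbits (496 and 428 against 324 and 203 CPM, and 551 and 181 against 472 and 38.6 CPM) and lower in both ligated ones (q = 0.00250 and 0.00267 for the difference of the differences). Within sham media the location difference of these genes did not pass in the same fit (q = 0.389 for CRYAB, 0.127 for HSPH1 and 0.142 for DNAJB4).

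NEXN followed the same order, with 4640.3 and 3185 CPM in the sham BT and 3589 and 2498 CPM in the sham BA (difference of the differences −1.52, SE 0.24, q = 0.00162). THBS1 (2169 and 2848 against 1694 and 1134 CPM, q = 0.00276) was also higher in the BT of both sham rabbits. So was PDLIM5 (1541 and 2069 against 1139.9 and 1013 CPM, q = 0.00267), named after its values were seen. These q-values are for the difference of the differences. Within sham media the location difference did not pass for NEXN (q = 0.517), THBS1 (q = 0.105) or PDLIM5 (q = 0.0794). ACTA2 read 89118 and 62793 CPM in the sham BT and 75366 and 65399.6 CPM in the sham BA, so that the sham rabbits differed in direction (q = 0.0497 for the difference of the differences). Over lists, the median location difference in sham media was 0.34 for heat shock, 0.22 for TRiC, 0.16 for contractile, 0.36 for YAP and TEAD target and 0.38 for protease genes, beside −0.01 for all genes tested. Of these 5 lists the first 4 had medians of the opposite sign in ligated media, and the proteases had the same. The difference between the flow groups was not tested for a list.

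Other genes had their larger location difference in sham animals. APOD, a lipocalin of fibroblasts, read 1466 and 1125 CPM in the sham BT and 11348 and 9145 CPM in the sham BA, but 546 and 1006 CPM against 865 and 824 CPM in ligated animals (difference of the differences 2.80, q = 2.94e-06). CP, ceruloplasmin, a copper-carrying ferroxidase, read 451 and 404 against 1865 and 1713 CPM in sham and 1063 and 921 against 810.2 and 511 CPM in ligated animals (2.69, q = 7.22e-06). EFEMP1, a fibulin of the elastic matrix named after its values were seen, read 5.87 and 34.3 CPM in the sham BT and 212 and 222 CPM in the sham BA. In these 3 genes the sham BA stood above the sham BT in both rabbits. Lists of cell types differed between the sham locations as well. The fibroblast and leptomeningeal list had a median of −0.97, with 11 genes below 0 and 3 above, and the macrophage list −1.61, with 13 of 13 below 0. The endothelial list had a median of 0.84, with 4 below and 11 above. The median of all genes tested was −0.01. The part of these cells in the sham differences was not tested.

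**Figure D5:**
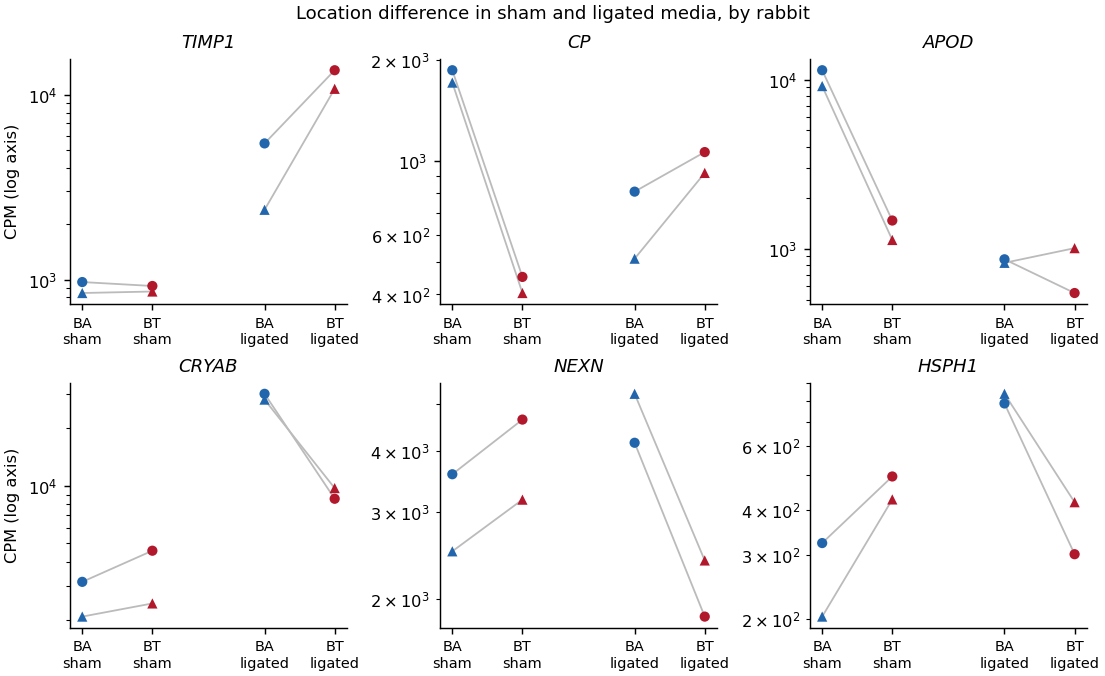
CPM, on a log axis that differs between panels, of 6 genes in the media of sham rabbits 3 (circles) and 4 (triangles) and of ligated rabbits 5 (circles) and 6 (triangles). Blue points are the BA and red points the BT of a rabbit, joined by a line; lines of CRYAB, NEXN and HSPH1 rise in sham and fall in ligated animals, and those of TIMP1 rise in ligated animals and stay nearly level in sham animals.

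The intima of the same ligated rabbits gave the same contrast in the neighbouring layer. Of the 178 genes, 176 could be compared, and 145 (82.4%) had a location difference of the same sign in the intima, beside 54.9% of 8357 genes tested in the media. In sham media 96 of 176 (54.5%) had the same sign, beside 47.6% of 8415 genes. Laser-cut intima and media of 1 vessel adjoin, and the paper states that the intimal samples held some smooth muscle. The part of shared tissue in these shares was not tested. CRYAB differed by −1.66 in the media and −1.68 in the intima, TIMP1 by 1.76 and 1.12, SAT1 by −1.46 and −1.01, NEXN by −1.14 and −1.46, ALX4 by 3.39 and 4.33, and P2RX1 by 4.87 and 2.26 on the log2 scale in a fit over both layers. MGP went the other way, at 1.03 in the media and −1.53 in the intima, and so did TNFAIP6, at 2.34 and −2.56. The difference between the layers was tested for 9242 genes over the 8 libraries of ligated rabbits, and 0% passed (260 at an unadjusted p below 0.05, and 13 by DESeq2). ISG15 had the smallest p (0.000367, q = 1), with 177 and 429 against 139 and 89.1 CPM in the media and 20.1 and 44.1 CPM in the BT against 120.3 and 384 CPM in the BA of the intima.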

How the data were processed

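RNA from laser-cut sections was amplified with SMART-Seq v4 and sequenced as single reads. Per the labels and the study's methods, the authors aligned reads to oryCun2 with STAR and kept unique alignments. They counted reads per gene with featureCounts (version 1.6.2 in the submitters' processing notes), set to reverse-stranded reads although the kit does not mark strand. Reads of a gene and an antisense partner therefore cannot be told apart. With this setting, exonic reads of the other strand would go uncounted, which would lower the counts and depths given here. The deposited values are raw counts, without normalization, for 13788 symbols and 1 entry without a symbol, which took 14.8% to 16.7% of the 4 libraries and was left out. Dates had replaced 22 symbols, which were kept in the fits and not named. Of the tested symbols 8120 were in RefSeq's gene table.

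Counts were tested with edgeR 4.0.16 (R 4.3.3): TMM scaling, genes with a mean above 1 CPM in a location, quasi-likelihood F test in its older form, rabbit as a block, and Benjamini-Hochberg q-values over all genes tested. The pairing comes from the shared rabbit; deviations of same-numbered libraries from their group means had r = 0.0523 over 8545 genes. Same-group libraries differed by more than sampling noise (chi-square per degree of freedom 22.5 and 33.2). Separate amplifications of 1 rabbit were not made, so differences between rabbits and noise of dissection or amplification cannot be told apart in this spread. Gene-level values are CPM on the TMM scale; for libraries without a count of a gene, bounds were set at 3 counts (95%, counting error only). Ratios per rabbit used a pseudocount of 0.5 CPM.

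The comparison, 42 gene lists and the rules were chosen with earlier results of these data known. Named genes were the 15 smallest q-values in either direction with the same sign in both rabbits, up to 5 calls (or the smallest p) of a list, defining cell markers, and the 3 smallest p-values in either direction of the 2 interactions. A few genes that this rule names are not reported here. Genes outside this rule were named after their values were seen, and many are marked so in the text. Among those not marked there are FLNC and the list members PLAUR, ADAMTS9, MMP2, COL1A2, COL3A1, HSPA8, ACTG2 and MYLK. Alternatives were no block, RLE and no scaling, all genes, filterByExpr, DESeq2 1.42.0, edgeR's newer form, thinning to 2154863 counts, 8 medial libraries together, leaving out each rabbit and, added after the data were seen, limma-voom (limma 3.58.1).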

Additional observations from a re-analysis of the deposited data

Results flagged for a closer look

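In 47 genes the difference between the BT and the BA itself differed between ligated and sham media. It was tested as an interaction over 8 medial libraries with rabbit as a block and adjusted with edgeR over 9368 genes. The 6 genes given here had the 3 smallest p-values in either direction. The log2 difference of the BT over the BA was higher in ligated animals by 2.80 for APOD (−0.19 in ligated and −2.99 in sham media), by 2.69 for CP (0.62 and −2.07) and by 1.77 for TIMP1 (1.75 and −0.02). It was lower in ligated animals for CRYAB (difference −2.06, from 0.38 in sham to −1.68 in ligated media) and NEXN (difference −1.52, from 0.36 to −1.15). In each of these 5 genes both rabbits of a flow group lay on the same side, except TIMP1 in sham and APOD in ligated animals.

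TM4SF18, a tetraspanin-like membrane protein, had 55 and 51 counts in the BT and no count in the BA of the sham rabbits, so that the BT was at least 31.2-fold higher against 3 counts per library. In ligated media it read 282 and 168 CPM in the BT and 312 and 44.8 CPM in the BA. The fitted difference of −8.29 rests on the libraries without a count and is not a bound. Its direction in ligated media differed between rabbits 5 and 6.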

How the results depend on the processing

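Without the replicate block, which pairs the libraries of a rabbit, 1 of the 178 location calls (CRYAB) and 2 of the 47 interaction calls with flow passed, and PROS1 turned to a log2 difference of −0.0083. Location calls numbered 165 with RLE scaling, 161 with all genes, 162 with thinned libraries and 204 with limma-voom, but 18 without composition scaling, 87 with filterByExpr, 83 with DESeq2, 0 with edgeR's newer form and 37 over 8 medial libraries. Leaving out a rabbit gave 19 to 76. All 178 kept their direction where tested in every alternative on the 4 libraries and in the fit over 8 medial libraries, 177 of 178 did without rabbit 5 and 170 of 177 without rabbit 6, and 31 were called by each of RLE scaling, all genes, filterByExpr, DESeq2, thinning, 8 medial libraries and limma-voom. The interaction with flow gave 151 calls with all genes, 123 with DESeq2, 109 with thinned libraries, 14 with filterByExpr, 1 with the newer form and 31 to 189 on leaving out a rabbit; without composition scaling 32 of 45 were higher in ligated animals against 20 of 47. That with layer gave 13 with DESeq2, and could not be fitted without a rabbit. The causes were not tested.

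Without rabbit 6 and without rabbit 5 in turn, the log2 difference was −0.58 and 13.03 for CXCL10 (the latter fitted against a library without a count), −0.19 and 5.34 for ADGRL4, −0.39 and 2.39 for VCAM1, −0.44 and 3.02 for CALCRL, −0.16 and 3.33 for PECAM1, −0.11 and 4.96 for MYCT1, −0.15 and 1.91 for TM4SF18, −0.060 and 0.87 for H2AFJ, −0.35 and 0.78 for MMP2, −0.60 and 0.84 for PROS1, 2.56 and −0.41 for HBB2, −0.66 and 0.29 for APOD and 1.16 and −0.23 for EYA1. The shallowest library held 2154863 counts, where 3 counts amount to 1.39 CPM.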
